A study of Mus musculus with 151 samples.

Results

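The ovaries of 12-week-old female mice conceived by in vitro fertilization (IVF, 5 libraries) were compared with ovaries of females of the same age conceived by mating (Natural, 4 libraries). These 9 libraries were all those labelled as 12-week ovary, out of 151 samples in the series, and every gene in their count table was considered. The study asked whether gene expression in the ovary of IVF offspring differs in ways linked to early loss of ovarian function. Both groups had CF-1 mothers and B6/SJL fathers. The IVF females came from eggs of hormonally superovulated donors, fertilized in vitro, cultured to the blastocyst in low oxygen and placed without surgery into pseudopregnant recipients, whereas the Natural females came from unstimulated matings and no embryo transfer. Ovarian stimulation, fertilization in the dish, culture and transfer therefore came as 1 package and cannot be told apart. Pups of both groups were delivered by cesarean section and raised by foster dams. Per the study, IVF pups were delivered at a later embryonic day than Natural pups. The day of delivery thus differed with conception and cannot be told apart from it. RNA was taken from a portion of a snap-frozen ovary per female, chosen at random from different litters. CF-1 mice are outbred, so that females within a group are not genetically identical. The stage of the estrous cycle and the hour of collection of the ovaries used for RNA were not given in the sources used here. The study states proestrus for adult females that gave serum for hormones, without saying whether their ovaries were among those sequenced.

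The adult ovary holds oocytes enclosed by granulosa cells, theca cells that supply androgen, corpora lutea that make progesterone, and a stroma with vessels and immune cells. The make-up of this tissue turns over within each estrous cycle, and the ovary lies against the oviduct, whose lining carries secretory cells and cells with motile cilia. A whole-ovary library mixes all of these, and in such bulk samples fewer cells of a type and less RNA per cell cannot be told apart.

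The libraries held between 2839022 and 43363799 counted reads (Natural 20366410 to 29904780, IVF 2839022 to 43363799), with IVF replicate 4 the shallowest. Markers of ovary were present in all 9 libraries, among them Gdf9 and Zp3 of oocytes, Foxl2 and Amh of granulosa cells, Star and Cyp11a1 of steroid-producing cells and Akr1c18 of luteal cells. IVF replicates 3 and 4 stood apart from the other 7 libraries on the first 2 principal components of log2 CPM (counts scaled to library size with TMM normalization factors), which held 43.4% and 21.4% of the variance. Results that rest on these 2 libraries are given below with and without them.

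Oviduct genes varied widely among the libraries and were lower in the IVF group. Ovgp1, which encodes the main glycoprotein secreted by the oviduct, measured 5410, 2747, 6308 and 2766 CPM in Natural replicates 1 to 4 and 2412, 2588, 2.35, 608 and 287 CPM in IVF replicates 1 to 5. The groups did not overlap, but IVF replicates 1 and 2 lay close to Natural replicates 2 and 4 while IVF replicate 3 had almost none. The log2 fold change of Ovgp1, IVF minus Natural, was -1.87 ± 1.14 (SE). The adjusted p was 0.47 by edgeR's quasi-likelihood test with Benjamini-Hochberg correction, so Ovgp1 did not pass the threshold used here. Pax8, a transcription factor of the secretory cells, was at 0 counts in IVF replicate 3, which allows up to 0.308 CPM in that library, and measured 6.22 to 17.9 CPM in the other IVF libraries and 19.5 to 42.3 CPM in the Natural ones. Foxj1, the master regulator of motile cilia, was also at 0 in IVF replicate 3 and measured 80.8 to 166 CPM in the other 4 IVF libraries against 137 to 459.9 CPM in the Natural libraries, with overlap.

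The whole oviduct secretory list took 0.284% to 0.661% of all counts in the Natural libraries and 0.00504% to 0.281% in the IVF libraries. Of its 8 genes, all tested, 7 were lower in IVF and 5 of these had an unadjusted p below 0.05, beside 8.22% of all 17628 genes tested that were lower at that p and 6.21% that were higher. Of the 34 cilia genes tested, out of 37 named, 33 were lower, 2 of them with p below 0.05, a smaller share than the 8.22% of all genes, and the median log2 fold change was -0.996. That median was -0.58 without IVF replicates 3 and 4 and -0.55 without Natural replicate 3, and the median of the secretory list, -1.77 with all libraries, was -1.34 without IVF replicates 3 and 4. The exception was Ccno, a regulator of centriole amplification, at 10.1 to 17.8 CPM in Natural and 13.3 to 33.8 CPM in IVF, higher at an unadjusted p below 0.05. The part of oviduct carry-over in the other differences below was not tested. Values with the library's oviduct and cilia level as a covariate are given beside several of the gene groups. This level averages 8 secretory and 34 cilia genes, and was -0.40 in IVF replicate 3 and 3.30 to 5.50 in the others. It was 4.09 in both IVF replicate 5 and Natural replicate 4, whose Ovgp1 measured 287 and 2766 CPM. It was also lower in IVF on average, so values with it are not freed of oviduct carry-over.

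**Figure D1:**
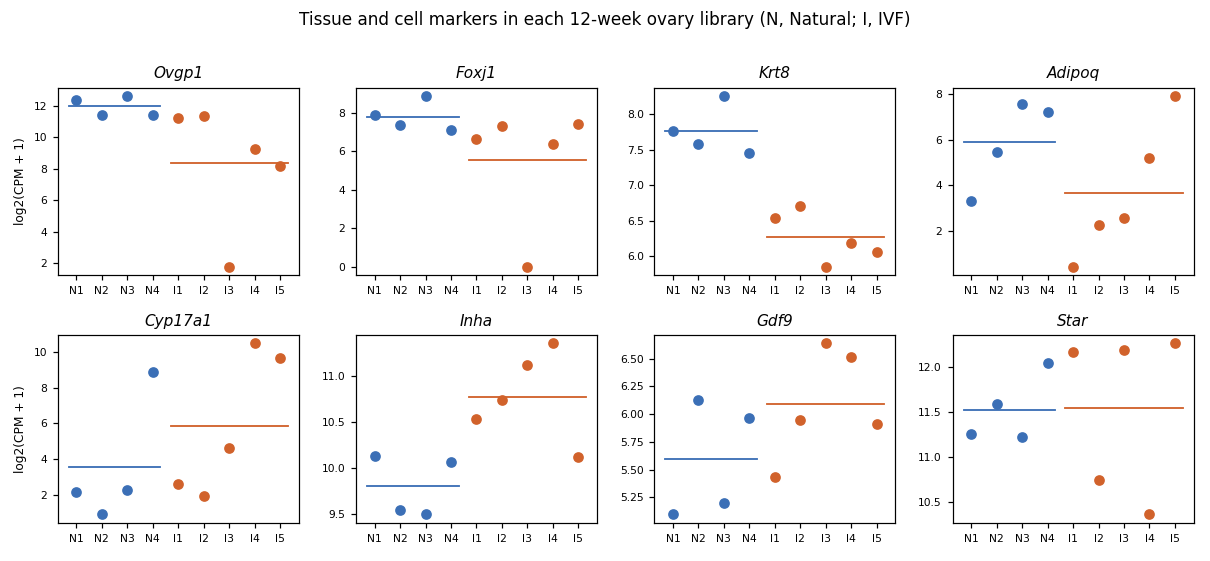
Level of 8 marker genes in each 12-week ovary library, as log2(CPM + 1) on the vertical axes (each panel has its own range), for Natural replicates 1 to 4 (blue) and IVF replicates 1 to 5 (orange), with group means as lines. Ovgp1 and Foxj1 are lowest in IVF replicate 3, Krt8 separates the groups, Cyp17a1 and Adipoq range widely within both groups, and Inha and Gdf9 are highest in IVF replicates 3 and 4.

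At the level of single genes, 1 of the 17628 genes tested (0.00567%) passed an adjusted p of 0.05 by edgeR's quasi-likelihood test with Benjamini-Hochberg correction, in the direction of lower in IVF. At an unadjusted p below 0.05, 1095 genes were higher and 1449 lower, and the median log2 fold change of all genes was 0.01. The DESeq2 Wald test, applied to the same genes, called 186 higher (1.06%) and 474 lower (2.69%) at its adjusted p of 0.05. The groups did not overlap, every IVF library lying above or below every Natural library, for 433 genes that were higher (2.46%) and 641 that were lower (3.64%).

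The gene that passed was Tmem181c-ps, a transcribed pseudogene of the Tmem181 family (GRCm38.p6, chromosome 17, 6610103 to 6620925 in RefSeq). It measured 19.1, 17.2, 14.2 and 10.5 CPM in the Natural libraries and 0.832, 1.03, 0.205, 0.338 and 0.842 CPM in the IVF libraries. No IVF library came near a Natural one, and the log2 fold change was -4.36 ± 0.37 (SE), adjusted p = 0.0059 by edgeR with Benjamini-Hochberg correction. The gene passed in 14 of the 16 alternative settings that tested it, the highest edgeR adjusted p being 0.25. It did not pass with a block for replicate number or with 3 ages fitted together. Its copies, named for their sequence family and not by the rule, were Tmem181a (20.1 ± 6.76 CPM, SD, n = 4 Natural; 19.6 ± 1.13 CPM, n = 5 IVF) and Tmem181b-ps (22.1 ± 4.19 and 27.5 ± 5.82 CPM), and had log2 fold changes of -0.05 ± 0.21 and 0.32 ± 0.19 (SE), with edgeR adjusted p of 0.95 and 0.46. Reads of such similar copies may be split by the counting, so the level of each is uncertain.

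Within the groups of other ages Tmem181c-ps was not uniform. At E18.5 it ranged from 0.203 to 24.5 CPM among the 4 Natural ovaries and from 0.861 to 18.0 CPM among the 6 IVF ovaries. At 39 weeks the ranges were 0.580 to 8.68 CPM in Natural and 0.201 to 10.0 CPM in IVF. Ovaries with and without appreciable counts thus occurred in both groups at the other ages, whereas at 12 weeks they coincided with the groups. Whether inherited differences among the outbred females play a part was not tested.

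The 12 genes described as higher in IVF were named by the smallest p among those whose groups did not overlap and whose mean reached 5 CPM. Ppm1e, a phosphatase of calmodulin-dependent kinases, measured 25.7, 29.2, 29.8 and 24.3 CPM in Natural and 47.3, 42.1, 41.9, 37.9 and 43.9 CPM in IVF (log2 fold change 0.65 ± 0.10 SE, edgeR adjusted p = 0.11). Acvr1, a type I receptor for bone morphogenetic proteins and activins, measured 39.0, 39.1, 33.3 and 42.6 CPM in Natural and 57.4, 56.0, 53.6, 54.4 and 61.9 CPM in IVF (0.56 ± 0.09 SE, edgeR adjusted p = 0.11). In both genes the lowest IVF library stood well clear of the highest Natural one, and the highest value was not in IVF replicate 3 or 4. Prkar2b, a regulatory subunit of protein kinase A that is induced in granulosa cells by follicle-stimulating hormone, measured 221 to 321 CPM in Natural and 436 to 692 CPM in IVF, a log2 fold change of 0.88 ± 0.16 (SE).

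The other 9 were of varied kinds. Nmt2 encodes an N-myristoyltransferase, Tfdp2 a partner of E2F factors, Pdp1 a phosphatase that activates pyruvate dehydrogenase, Tln2 a talin that links integrins to actin, Cd276 an immune checkpoint ligand, Tmem206 an acid-activated chloride channel, Nr1d2 a repressor of the circadian clock, Vstm4 a membrane protein with an immunoglobulin-like domain, and Gm3325 a predicted gene. Cd276 and Gm3325 had the largest log2 fold changes among the 12, 1.02 ± 0.17 and 1.01 ± 0.19 (SE), with Cd276 going from 11.1 to 16.7 CPM in Natural to 20.2 to 32.0 CPM in IVF. All 12 had edgeR adjusted p values between 0.11 and 0.14 and so did not pass.

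The 12 genes named by the same rule in the lower direction included Tmem181c-ps, and Krt8 and Ptgs2, which are described below. Bace2, a protease that cleaves membrane proteins, measured 60.8, 49.9, 67.8 and 67.6 CPM in Natural and 32.3, 27.5, 18.3, 23.3 and 21.4 CPM in IVF (log2 fold change -1.32 ± 0.17 SE, edgeR adjusted p = 0.091). Galm, the mutarotase of galactose metabolism, averaged 42.6 ± 6.24 CPM (SD, n = 4) in Natural and 17.5 ± 3.86 CPM (n = 5) in IVF. For both genes the highest IVF library lay clearly below the lowest Natural one. Ckmt1, a mitochondrial creatine kinase of epithelia and brain, measured 13.0 to 25.3 CPM in Natural and 2.86 to 5.12 CPM in IVF, and Cbr2, a carbonyl reductase, 73.2 to 84.0 and 5.73 to 25.0 CPM, a log2 fold change of -2.15 ± 0.32 (SE). Without IVF replicate 3, Cbr2 passed the threshold (-1.93, edgeR adjusted p = 0.0022). Sec23b of the vesicle coat that leaves the endoplasmic reticulum (-0.57 ± 0.08), the aminopeptidase Anpep (-0.95 ± 0.14), the immediate early gene Ier3 (-1.69 ± 0.25) and Sat1, which acetylates polyamines for export (-0.63 ± 0.10), had edgeR adjusted p values of 0.091, 0.091, 0.091 and 0.11.

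**Figure D2:**
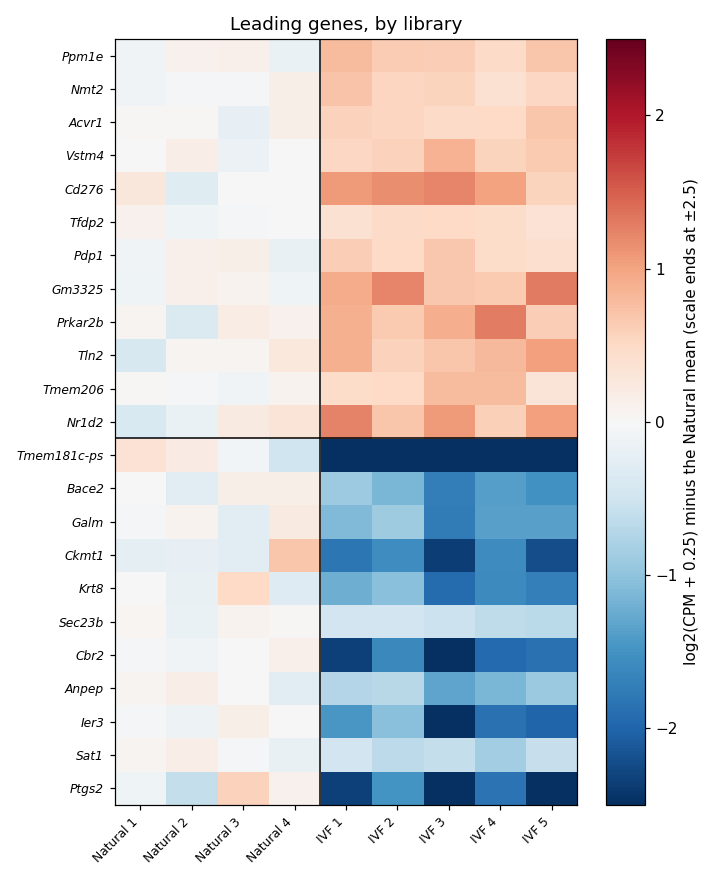
The 12 genes higher (upper block) and 11 of the 12 lower (lower block) in IVF that the rule named, in each library, as log2(CPM + 0.25) minus the mean of the 4 Natural libraries; red is higher, blue is lower and the colour scale ends at 2.5 in either direction. The genes were chosen because the groups do not overlap, so the separation is given by the choice; among the lower genes, Krt8, Cbr2, Anpep and Ier3 are lowest in IVF replicate 3.

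Epithelial genes were lower in IVF throughout the list at 12 weeks. All 20 of the 20 tested were lower, 19 with an unadjusted p below 0.05 (8.22% of all genes), 16 without overlap between the groups (3.64% of all genes), and the median log2 fold change was -1.72, beside 0.01 over all genes. DESeq2 called 11 of the 20 (2.69% of all genes), and edgeR none. Krt8, a keratin of simple epithelia, measured 217, 191, 305 and 174 CPM in Natural and 92.3, 104, 56.8, 71.7 and 65.9 CPM in IVF (-1.50 ± 0.21 SE, edgeR adjusted p = 0.091). Its partner Krt18 measured 236 to 407 CPM in Natural and 20.9 to 147 CPM in IVF. Krt7, a keratin of ducts and of the oviduct lining, measured 84.8, 62.1, 73.8 and 60.4 CPM in Natural and 19.8, 24.6, 6.75, 33.1 and 24.4 CPM in IVF. IVF replicate 3 was lowest for each of these keratins, and the remaining 4 IVF libraries still lay below all Natural ones.

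The same held for Elf3, an epithelial transcription factor (65.2 to 99.1 CPM in Natural, 5.73 to 33.6 CPM in IVF). It also held for 2 genes of the oviduct secretory list that other epithelia express too, the membrane mucin Muc1 (21.9 to 41.5 and 1.64 to 20.4 CPM) and the secreted protease inhibitor Wfdc2 (20.5 to 47.8 and 0.409 to 8.45 CPM). The median of the epithelial list was -1.40 without IVF replicates 3 and 4, with all 20 genes lower and 18 with an unadjusted p below 0.05, and -0.98 with the oviduct and cilia level as a covariate, with all 20 lower and 15 with p below 0.05. Krt7 passed an edgeR adjusted p of 0.05 without IVF replicates 3 and 4 (-1.61, adjusted p = 0.031) and without IVF replicate 3 alone (-1.49, adjusted p = 0.028). At E18.5 the epithelial list had a median of -0.48, with 19 of 20 genes lower. At 39 weeks it lay the other way, with 20 of 20 higher and a median of 2.78, and there the oviduct secretory list (7 of 7 higher, median 2.42) and the cilia list (30 of 31 higher, median 3.22) were higher in IVF too. None of the 20 epithelial genes passed the edgeR test of a difference between the effects at 39 and 12 weeks. Surface mesothelium, the covering of the ovary itself, gave a median of -0.28 over 9 genes, and its marker Upk3b measured 46.8 to 93.2 CPM in Natural and 38.2 to 69.2 CPM in IVF.

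Genes of the circadian clock lay on both sides, some higher and some lower in IVF. In the clock, the activators Clock, Arntl and Npas2 switch on the Per, Cry and Nr1d repressors and the D-box factors Dbp, Tef and Hlf, and the Nr1d repressors in turn hold down Arntl, Npas2 and Cry1, so that levels of the 2 sets cycle over the day in different phase. Of the 18 clock genes, all tested, 6 were higher with an unadjusted p below 0.05 (6.21% of all genes) and 4 lower (8.22%), and 4 higher and 2 lower did not overlap between groups (2.46% and 3.64%). DESeq2 called 5 higher and 1 lower, beside 1.06% and 2.69% of all genes, and edgeR none. With 9 genes higher and 9 lower, the median over the list was 0.00.

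Among the D-box factors, Dbp measured 14.9, 18.6, 31.3 and 47.4 CPM in Natural and 110.1, 79.4, 116, 50.7 and 64.8 CPM in IVF, a log2 fold change of 1.59 ± 0.36 (SE; edgeR adjusted p = 0.15). Tef measured 67.4, 80.6, 102 and 109 CPM in Natural and 134, 121, 139, 150.2 and 128 CPM in IVF (0.58 ± 0.14 SE, edgeR adjusted p = 0.16). Natural replicates 1 and 2 were lowest for both genes, and no IVF library overlapped with a Natural one. Hlf, named here after its values were seen, was also without overlap, with 4.53 to 12.7 CPM in Natural and 12.8 to 20.5 CPM in IVF.

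Among the repressors, Nr1d2 measured 46.5, 53.5, 71.0 and 75.6 CPM in Natural and 144, 97.7, 127, 92.0 and 123 CPM in IVF (0.92 ± 0.18 SE, edgeR adjusted p = 0.14). Nr1d1, also named after its values were seen, measured 41.3, 34.5, 54.1 and 83.7 CPM in Natural and 122, 113, 102, 46.0 and 108 CPM in IVF, overlapping through IVF replicate 4. Per3 measured 15.2, 14.2, 29.2 and 23.2 CPM in Natural and 41.3, 44.8, 39.8, 31.4 and 27.5 CPM in IVF (0.86 ± 0.24 SE, edgeR adjusted p = 0.18), with IVF replicate 5 within the Natural range. Per1 and Per2, likewise named after their values were seen, had log2 fold changes of -0.07 ± 0.19 and -0.41 ± 0.31 (SE).

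Of the activator side, Npas2 measured 18.9, 13.9, 14.0 and 9.69 CPM in Natural and 7.70, 7.48, 3.07, 4.73 and 8.32 CPM in IVF (-1.14 ± 0.30 SE, edgeR adjusted p = 0.17). Arntl measured 16.5 to 23.8 CPM in Natural and 7.78 to 16.6 CPM in IVF (-0.66 ± 0.22 SE), the groups touching at a single library each. Cry1 (23.6 to 32.6 and 16.3 to 22.7 CPM), named after its values were seen, was lower too, while Clock itself differed by -0.12 ± 0.13 (SE). Dbp, Nr1d1, Nr1d2, Tef, Hlf and Per3 thus lay above Natural on average and Arntl, Npas2 and Cry1 below. Of the 4 clock genes lower at an unadjusted p below 0.05, only Arntl, Npas2 and Cry1 are named here. The count of clock genes with an unadjusted p below 0.05 was 6 higher and 4 lower also without IVF replicates 3 and 4, and 6 higher and 3 lower with the oviduct and cilia covariate. The part of the hour of collection in these differences was not tested.

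At the other ages the values differed. At 39 weeks the log2 fold change was -0.39 for Dbp, -0.54 for Nr1d2, -0.90 for Per3 and 1.01 for Npas2, and at E18.5 it was -0.19 for Dbp and 0.40 for Nr1d2. The difference between the 39-week and the 12-week effect on Nr1d2 was -1.46 ± 0.26 (SE) on the log2 scale, with an edgeR adjusted p of 0.051, and for none of the 18 clock genes did it pass 0.05.

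**Figure D3:**
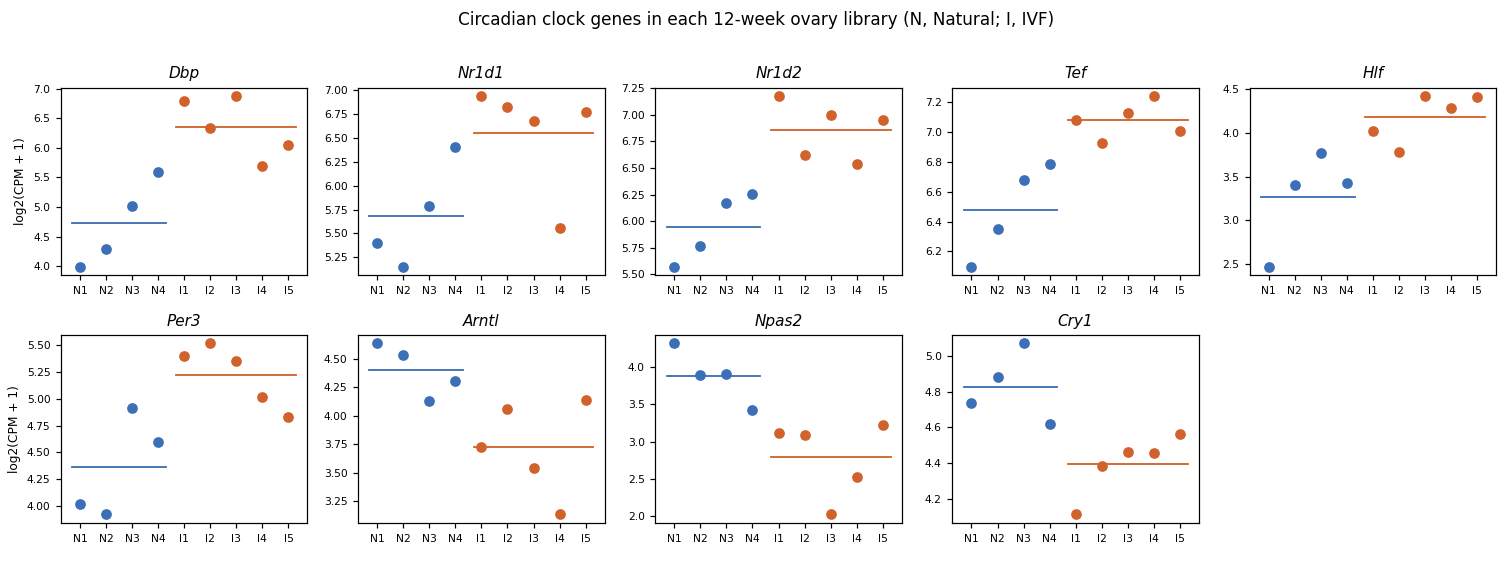
Level of 9 clock genes in each 12-week ovary library, as log2(CPM + 1) on vertical axes of differing range, for Natural (N1 to N4, blue) and IVF (I1 to I5, orange) with group means as lines. These are 9 of the 10 clock genes with an unadjusted p below 0.05; the IVF mean is higher in the first 6 panels and lower in the last 3, and of those drawn only Dbp, Nr1d2, Tef, Hlf, Npas2 and Cry1 have no overlap.

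Clock factors bind short motifs near gene starts, so the promoters of these genes were searched for 2 of them: the E-box CACGTG of Arntl with Clock or Npas2, which reads the same on both strands, and the D-box TTATGTAA of Dbp, Tef and Hlf, on both strands. The windows were RefSeq promoters of GRCm38.p6 (250 bases before to 50 bases after a start), which were at hand for 15 of the 18 clock genes as 20 windows. An E-box stood in 6 of the 20 windows (5 genes) and a D-box in 1 of the 20 (1 gene), beside 7.15% and 0.938% of all 32851 promoter windows. Windows of 1 gene are not independent of each other. Below are the windows of the genes with an unadjusted p below 0.05 that hold a motif, written 5′ to 3′ on the strand of the gene, with the motif in capitals: Per3 (chr4:151044616-151044915, minus strand, 2 D-boxes), Tef (chr15:81802423-81802722, and chr15:81811164-81811463, both on the plus strand with 1 E-box each) and Cry1 (chr10:85185005-85185304, minus strand, 1 E-box).
Per3: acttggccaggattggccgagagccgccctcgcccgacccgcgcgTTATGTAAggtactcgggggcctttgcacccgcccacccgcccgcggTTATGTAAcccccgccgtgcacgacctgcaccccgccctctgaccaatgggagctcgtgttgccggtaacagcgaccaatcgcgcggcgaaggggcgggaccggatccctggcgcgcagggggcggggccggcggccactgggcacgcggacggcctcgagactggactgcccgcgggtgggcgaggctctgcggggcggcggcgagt
Tef, first window: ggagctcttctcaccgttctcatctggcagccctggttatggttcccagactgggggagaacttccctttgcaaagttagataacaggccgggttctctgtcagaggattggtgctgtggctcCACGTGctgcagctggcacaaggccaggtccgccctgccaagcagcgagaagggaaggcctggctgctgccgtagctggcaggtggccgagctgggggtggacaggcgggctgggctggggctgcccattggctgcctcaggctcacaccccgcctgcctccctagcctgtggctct
Tef, second window: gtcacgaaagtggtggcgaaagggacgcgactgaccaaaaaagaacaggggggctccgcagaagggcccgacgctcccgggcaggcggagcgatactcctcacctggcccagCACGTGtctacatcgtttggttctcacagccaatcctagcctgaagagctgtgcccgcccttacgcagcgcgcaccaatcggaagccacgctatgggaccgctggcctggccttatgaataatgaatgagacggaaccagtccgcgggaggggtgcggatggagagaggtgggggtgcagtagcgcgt
Cry1: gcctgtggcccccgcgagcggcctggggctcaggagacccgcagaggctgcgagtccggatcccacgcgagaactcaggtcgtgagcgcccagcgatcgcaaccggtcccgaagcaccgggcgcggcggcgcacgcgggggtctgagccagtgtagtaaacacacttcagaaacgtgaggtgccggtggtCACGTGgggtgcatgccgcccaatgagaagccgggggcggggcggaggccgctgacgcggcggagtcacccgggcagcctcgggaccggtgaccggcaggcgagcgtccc
The windows of Dbp, Nr1d1, Nr1d2, Hlf, Arntl and Npas2 held neither string, which says only that these letters are not in those windows.

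Genes of protein folding were lower in IVF. All 14 heat shock and endoplasmic reticulum stress genes were lower, 8 of them with an unadjusted p below 0.05 (8.22% of all genes) and 4 without overlap (3.64%), at a median log2 fold change of -0.51. DESeq2 called 6 of the 14, beside 2.69% of all genes, and edgeR none. Xbp1, the transcription factor of the unfolded protein response, measured 257, 289, 289 and 247 CPM in Natural and 192, 202, 179.8, 209.7 and 189.7 CPM in IVF (-0.48 ± 0.09 SE, edgeR adjusted p = 0.12). Herpud1, a component of endoplasmic reticulum protein degradation, measured 128, 119.8, 159 and 90.8 CPM in Natural and 80.0, 80.7, 75.6, 74.4 and 70.5 CPM in IVF (-0.71 ± 0.14 SE, edgeR adjusted p = 0.14). For both, the 5 IVF libraries lay within a narrow band beneath the lowest Natural one.

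Dnajb9, a chaperone partner in the endoplasmic reticulum, measured 112 to 167 CPM in Natural and 81.4 to 101 CPM in IVF, and the small heat shock protein Hspb1 71.5 to 136 and 36.5 to 66.8 CPM. Of the inducible cytosolic chaperones, Hspa1a differed by -0.04 ± 0.33 and Hspa1b by -0.23 ± 0.40 (SE). The median of the list was -0.49 without IVF replicates 3 and 4 and -0.42 with the oviduct and cilia covariate, with 8 and 7 genes at an unadjusted p below 0.05. The list was lower in 14 of 14 genes at E18.5 as well (median -0.23), and in 4 of 14 at 39 weeks.

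Granulosa cell genes were mostly higher in IVF. Of 19 tested, 16 were higher, 8 with an unadjusted p below 0.05 (6.21% of all genes) and none without overlap, and the median was 0.49. DESeq2 called 3 of the 19, beside 1.06% of all genes, and edgeR none. Inha, the shared subunit of the inhibins, measured 1113, 743, 719 and 1066 CPM in Natural and 1482, 1707, 2216, 2614 and 1105 CPM in IVF (1.00 ± 0.26 SE, edgeR adjusted p = 0.17). Inhbb, a beta subunit, measured 308, 95.2, 200.3 and 163 CPM in Natural and 324, 566, 746, 751 and 198 CPM in IVF (1.43 ± 0.44 SE). IVF replicates 3 and 4 were highest and IVF replicate 5 within the Natural range in both genes.

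Hsd17b1, which converts estrone to estradiol, measured 135 to 189 CPM in Natural and 164 to 389.9 CPM in IVF. Gja1, the gap junction protein between granulosa cells, and Kitl, the ligand that granulosa cells offer to the oocyte, had log2 fold changes of 0.70 ± 0.22 and 0.46 ± 0.15 (SE). The follicle-stimulating hormone receptor Fshr measured 5.95 to 16.7 CPM in Natural and 12.4 to 46.7 CPM in IVF, the last value in IVF replicate 4. Without IVF replicates 3 and 4 the median of the list was 0.29, 14 of 19 genes were higher and 3 had a p below 0.05. With the oviduct and cilia covariate it was 0.37, with 16 higher and 5 at that p.

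The oocyte list followed the same libraries. Of 26 genes tested, 24 were higher, at a median of 0.42. An unadjusted p below 0.05 was found for 2 of the 26, a share near the 6.21% of all genes. Gdf9, an oocyte factor that acts on granulosa cells, measured 33.2, 69.0, 35.8 and 61.4 CPM in Natural and 42.2, 60.5, 98.6, 90.6 and 59.3 CPM in IVF (0.49 ± 0.29 SE, edgeR adjusted p = 0.47). Bmp15, its partner, measured 14.3 to 25.7 CPM in Natural and 17.7 to 42.6 CPM in IVF, and the maternal-effect gene Nlrp14 28.2 to 64.3 and 38.5 to 97.4 CPM. IVF replicates 3 and 4 held the highest levels of all 3 genes, and the other IVF libraries lay lower, most of them within the Natural range.

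A list of 200 genes with the highest ratio of single oocytes to cumulus cells in the study's own Natural females of 12 weeks gave a median of 0.37, with 164 higher, and the 200 genes at the other end gave -0.04. Without IVF replicates 3 and 4 the medians were 0.03 for the 26 oocyte genes and 0.08 for the 200, and with the oviduct and cilia covariate 0.09 and 0.10. Cell division genes were higher in 36 of 36 at a median of 0.46, with 3 at an unadjusted p below 0.05, a share near the 6.21% of all genes. Single libraries moved this list: 31 genes had such a p without IVF replicate 5, none had one without IVF replicate 3 (median 0.22), and the median was 0.20 without IVF replicates 3 and 4 and 0.11 with the covariate. Mki67, a marker of dividing cells, measured 72.8 to 113 CPM in Natural and 122, 194, 264, 119 and 64.1 CPM in IVF replicates 1 to 5.

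Steroid-producing cells were marked by wide spread in both groups. Cyp17a1, the theca enzyme that makes androgen, measured 3.42, 0.857, 3.85 and 469 CPM in Natural and 5.04, 2.83, 23.6, 1435 and 801 CPM in IVF. High values stood in Natural replicate 4 and IVF replicates 4 and 5, and low ones in both groups, so that the log2 fold change of 1.92 ± 2.07 (SE) had an edgeR adjusted p of 0.69. Star, which brings cholesterol into mitochondria, measured 2448, 3077, 2401 and 4225 CPM in Natural and 4624, 1714, 4688, 1321 and 4920 CPM in IVF (0.19 ± 0.40 SE, edgeR adjusted p = 0.87), and Cyp11a1, which starts steroid synthesis from cholesterol, 4093 to 8434 and 3403 to 11205 CPM.

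The steroidogenic list of 15 had 13 higher, 1 with an unadjusted p below 0.05, a share near the 6.21% of all genes, at a median of 0.26. The median was 0.10 without Natural replicate 1 and 0.11 without IVF replicate 1 or without IVF replicate 5, and 0.16 without Natural replicate 3. It was 0.38 without Natural replicate 4, where 4 genes were higher at that p, and 0.37 without IVF replicate 4. Leaving out IVF replicate 2, or IVF replicates 3 and 4 together, gave 0.35. With all libraries the 1 gene at that p was Nr5a1, the transcription factor of steroid-producing cells, at 114 to 279.9 CPM in Natural and 225 to 445 CPM in IVF. Of 7 luteal genes, 5 were higher and 2 lower, at a median of 0.15, or -0.15 without IVF replicate 5. Only Hsd17b7, which acts on estrone and in cholesterol synthesis, had an unadjusted p below 0.05 (8.22% of all genes). It was lower in IVF, against the direction of most of the list (50.9 to 124 and 34.2 to 61.0 CPM). Akr1c18, which inactivates progesterone, ranged from 899 to 3835 CPM in Natural and from 654 to 5403 CPM in IVF.

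Of 18 hormone receptor genes, 14 were higher and 4 lower. Esr1, the estrogen receptor alpha of theca, stroma and oviduct, measured 158, 206, 270.5 and 179 CPM in Natural and 95.3, 143, 41.8, 107 and 119 CPM in IVF, a log2 fold change of -1.01 ± 0.30 (SE; edgeR adjusted p = 0.20; DESeq2 adjusted p = 0.027). All IVF libraries lay below all Natural ones, and IVF replicate 3, the library with the least oviduct signal, was lowest. With the oviduct and cilia level as a covariate the log2 fold change of Esr1 was -0.55, and without IVF replicates 3 and 4 it was -0.77. Esr2, the estrogen receptor beta of granulosa cells, went the other way, at 48.6, 43.6, 40.3 and 55.0 CPM in Natural and 50.9, 80.3, 94.2, 117 and 68.1 CPM in IVF (0.80 ± 0.22 SE, edgeR adjusted p = 0.18). Bmpr2, the type II receptor for Gdf9 and Bmp15, measured 154 to 219 and 209 to 363 CPM, and Amhr2, the receptor for anti-Müllerian hormone, 86.3 to 164 and 119 to 208 CPM.

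Genes of the ovulatory response were lower in 11 of 11 tested, out of 12, with a median of -0.58, 2 at an unadjusted p below 0.05 and both without overlap (8.22% and 3.64% of all genes). The median was -0.28 without Natural replicate 1, with 9 of 12 lower, -0.32 without IVF replicates 3 and 4 and -0.50 with the oviduct and cilia covariate. Ptgs2, the prostaglandin synthase that the ovulatory surge induces, measured 7.45, 5.19, 12.1 and 8.68 CPM in Natural and 1.38, 2.69, 0.818, 2.03 and 1.03 CPM in IVF (-2.40 ± 0.39 SE, edgeR adjusted p = 0.11). Areg, an epidermal growth factor-like ligand of the same response, measured 2.32 to 3.61 CPM in Natural and 0.205 to 1.68 CPM in IVF. Pgr, the progesterone receptor, overlapped between groups at 10.8 to 40.6 and 5.93 to 17.3 CPM. In IVF replicate 4, 3 counts correspond to 1.06 CPM, so that these low levels rest on few counts there.

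Among glucose-handling genes, 14 of 19 were lower, 4 with an unadjusted p below 0.05 (8.22% of all genes), and the median was -0.14, or -0.10 with the oviduct and cilia covariate. Leaving out single libraries gave medians from -0.11 to -0.26, the latter without Natural replicate 4, with 7 genes lower at that p. The glucose transporter Slc2a1 measured 71.9, 60.9, 78.5 and 55.7 CPM in Natural and 42.1, 55.9, 33.5, 38.9 and 38.9 CPM in IVF (-0.67 ± 0.16 SE, edgeR adjusted p = 0.15), with IVF replicate 2 level with the lowest Natural library. Slc2a3, a second transporter, measured 29.7 to 83.2 CPM in Natural and 7.88 to 27.1 CPM in IVF (-1.44 ± 0.37 SE), and the glycolytic kinase Pgk1 74.2 to 119 and 51.2 to 80.3 CPM. Pfkm, the muscle-type phosphofructokinase, was the 1 gene of the list higher at that p, at 60.5 to 83.7 and 82.5 to 104 CPM. Cdh13, an adhesion molecule that the study singled out on these samples together with Slc2a1, measured 7.57, 8.87, 9.73 and 11.5 CPM in Natural and 4.28, 5.82, 2.86, 4.73 and 7.67 CPM in IVF (-0.88 ± 0.27 SE, edgeR adjusted p = 0.22). The values for Slc2a1 and Cdh13 are not independent evidence, since the study chose both genes on these libraries.

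Inflammation genes were lower in 11 of 18 tested, 5 with an unadjusted p below 0.05 (8.22% of all genes). Nfkbia, the inhibitor that NF-kappaB induces, measured 104 to 126 CPM in Natural and 70.4 to 103 CPM in IVF. Lcn2, a siderophore-binding protein of inflamed epithelia, measured 123, 95.4, 143 and 46.9 CPM in Natural and 42.9, 50.6, 3.89, 10.5 and 30.4 CPM in IVF. Ifit1, an interferon target (4.86 to 17.8 and 2.66 to 7.65 CPM), and Casp1, the caspase that matures interleukin-1 (5.27 to 8.17 and 3.58 to 5.22 CPM), were lower as well. With the oviduct and cilia covariate 1 gene of the list, not 5, had an unadjusted p below 0.05. Without IVF replicates 3 and 4, 9 of 19 tested were higher and 10 lower, 2 of the latter at that p. Il6 and Il1a did not reach the level needed for testing.

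Immune cell genes were split at 13 higher and 13 lower, with Cd14, a coreceptor for bacterial lipid on myeloid cells, at 19.7 to 26.5 CPM in Natural and 4.30 to 15.6 CPM in IVF. Endothelial genes had a median of 0.13. Pecam1, the endothelial adhesion molecule CD31, measured 57.6 to 83.2 CPM in Natural and 53.4 to 79.2 CPM in IVF (-0.11 ± 0.15 SE, edgeR adjusted p = 0.76), and Cdh5, the cadherin of endothelial junctions, 79.5 to 91.6 and 85.2 to 125 CPM (0.33 ± 0.11 SE, edgeR adjusted p = 0.22). Stroma and collagen genes had a median of 0.10, with Fbln2, an extracellular matrix protein, at 74.5 to 127 CPM in Natural and 42.9 to 67.2 CPM in IVF (-0.79 ± 0.17 SE), and Pdgfra, a stromal growth factor receptor, at 125 to 175 and 154 to 306 CPM. Adipoq, a hormone of fat cells, ranged from 8.85 to 188 CPM in Natural and from 0.333 to 240.4 CPM in IVF. The medians of the lists of fat, blood and smooth muscle turned on single libraries. The adipocyte list had a median of -0.53 with all libraries and none of 9 genes with an unadjusted p below 0.05, but -3.52 without IVF replicate 5, with 6 genes lower at that p, -3.73 with 8 genes under the replicate block, which also leaves IVF replicate 5 without a partner, -0.04 without Natural replicate 4 and 0.12 with the oviduct and cilia covariate. The 4 erythroid genes tested had a median of -0.18, and of -1.28 without IVF replicate 5, with 3 genes lower at that p, and -1.16 under the replicate block. Smooth muscle genes had a median of -0.25 over 15 genes, and of -0.52 without IVF replicate 2, with 6 lower at that p.

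Apoptosis genes had a median of 0.01, with 12 higher and 11 lower of 23 tested. Casp9, the initiator caspase of the mitochondrial route, measured 41.7, 43.6, 43.5 and 44.9 CPM in Natural and 50.4, 49.8, 51.9, 53.4 and 49.3 CPM in IVF, a small difference of 0.23 ± 0.07 (SE; edgeR adjusted p = 0.21) without overlap. DNA repair genes were higher in 21 of 24, at a median of 0.14. An unadjusted p below 0.05 was found for 2 of the 24, a share near the 6.21% of all genes. Without IVF replicates 3 and 4, 16 of 24 were higher, and with the oviduct and cilia covariate also 16. Parp1, a sensor of strand breaks, measured 139 to 155 CPM in Natural and 158 to 216 CPM in IVF (0.35 ± 0.10 SE, edgeR adjusted p = 0.18).

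Lists of energy metabolism and protein synthesis had medians near 0. They were -0.01 for 76 nuclear genes of oxidative phosphorylation, 0.02 for the 7 mitochondrially encoded genes tested, -0.03 for 82 cytosolic and 0.04 for 77 mitochondrial ribosomal protein genes, and 0.02 for 26 genes of nutrient sensing. Single members stood out by their small spread: Atp5g1, a subunit of the ATP synthase ring, measured 74.4 to 86.5 CPM in Natural and 59.9 to 66.0 CPM in IVF, and Mrps6, a mitochondrial ribosomal protein, 20.1 to 23.9 and 13.9 to 17.3 CPM. Sirt1, a deacetylase that responds to the energy state, measured 28.4 to 35.2 CPM in Natural and 33.3 to 42.2 CPM in IVF (0.31 ± 0.10 SE, edgeR adjusted p = 0.24). Cholesterol genes were lower in 19 of 24, 3 with an unadjusted p below 0.05 (8.22% of all genes), at a median of -0.23, with Mvd of the mevalonate pathway at 28.4 to 41.4 CPM in Natural and 15.4 to 27.0 CPM in IVF. Of 18 immediate early genes 9 were higher and 9 lower, with Fos at 13.1 to 19.0 and 7.65 to 13.6 CPM.

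**Figure D4:**
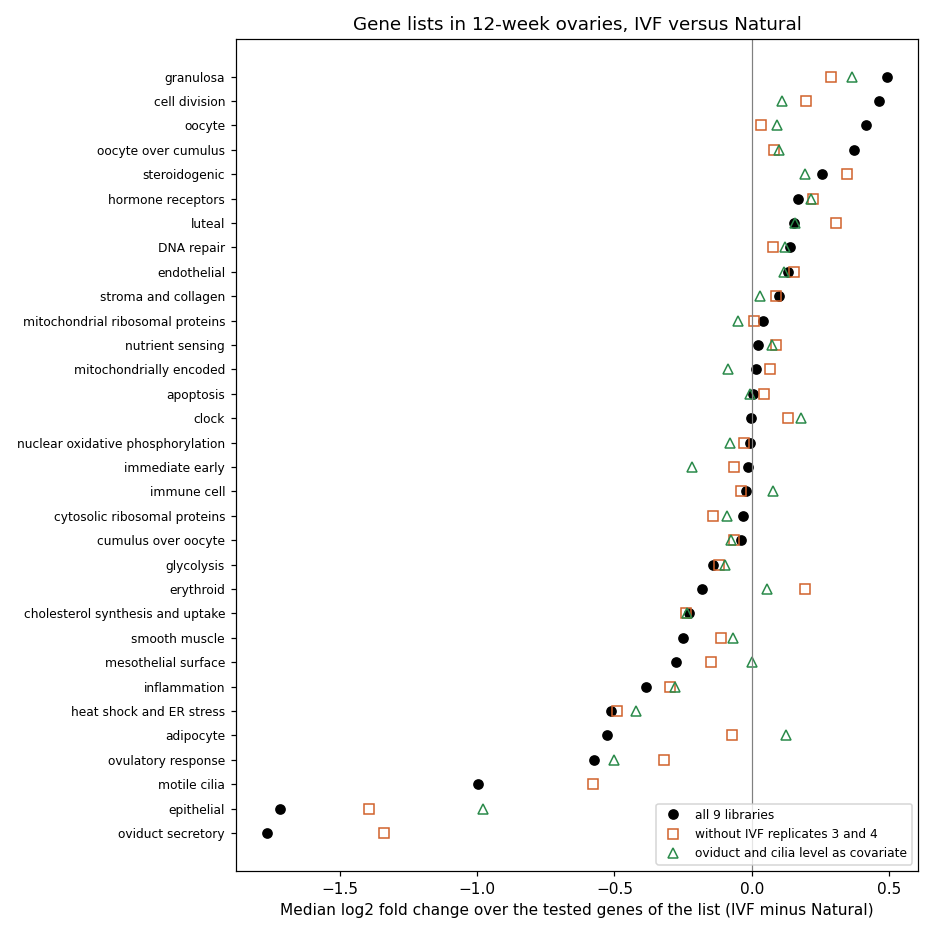
Median log2 fold change (IVF minus Natural) over the tested genes of each of 32 lists, with all 9 libraries (black circles), without IVF replicates 3 and 4 (open squares) and with the oviduct and cilia level of the library as a covariate (open triangles; not drawn for the oviduct and cilia lists, which form the covariate). With all libraries the oviduct secretory and epithelial lists lie lowest, at -1.77 and -1.72, the heat shock and endoplasmic reticulum stress list lies between -0.51 and -0.42 under the 3 settings, and the oocyte list moves from 0.42 to 0.03 and 0.09.

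Whether the IVF effect at 12 weeks differed from that at other ages was tested as an interaction. Between 12 weeks and E18.5, 1 of 17945 genes passed (0.00557%), Cd276 (chromosome 9). Its level in Natural and IVF ovaries was 80.0 ± 7.44 and 69.8 ± 5.40 CPM at E18.5 (SD, n = 4 and 6), and 13.8 ± 2.297 and 27.9 ± 4.65 CPM at 12 weeks (n = 4 and 5). The group means thus lay in opposite order at the 2 ages, and the difference of the effects was 1.22 ± 0.18 (SE) on the log2 scale (edgeR adjusted p = 0.040).

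Between 39 and 12 weeks, 3 of 19066 genes passed (0.0157%). These counts moved with single libraries, from 0 to 57 between 39 and 12 weeks (57 without IVF replicate 4 of 12 weeks) and from 0 to 173 between 12 weeks and E18.5 (173 without IVF replicate 2 of 12 weeks). Optn (chromosome 2), an autophagy receptor, measured 15.1 ± 1.38 CPM in Natural and 22.2 ± 3.55 CPM in IVF at 12 weeks, and 33.9 ± 1.79 and 20.5 ± 2.69 CPM at 39 weeks (n = 5 each). Its effect differed by -1.28 ± 0.17 (SE; edgeR adjusted p = 0.015), with IVF above Natural at 12 weeks and below at 39 weeks, without overlap at either age. Ppp1r14b (chromosome 19), an inhibitor of protein phosphatase 1, and Ybx3 (chromosome 6), an RNA-binding protein, differed by 0.91 ± 0.14 and 0.64 ± 0.10 (SE; edgeR adjusted p = 0.029 for both). At 12 weeks neither separated the groups, with log2 fold changes of -0.22 ± 0.11 and -0.04 ± 0.08 (SE), while at 39 weeks Ppp1r14b measured 43.0 to 54.0 CPM in Natural and 67.2 to 87.5 CPM in IVF, and Ybx3 107 to 123 CPM in Natural and 154 to 180.5 CPM in IVF.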

How the data were processed

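RNA from 9 ovaries of 12 weeks was sequenced with a stranded mRNA kit. Per the submitters' processing notes, the authors trimmed reads with Trimmomatic 0.32, aligned them to mm10 with STAR 2.3.0e and counted them per gene with featureCounts 1.5.0, and they deposited raw read counts. No normalization had been applied to the deposited counts. The table held 35976 gene names, of which 27 had been altered to numbers. All 9 columns matched the labels.

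Counts were scaled by TMM in edgeR 4.0.16 (R 4.3.3), filtered by filterByExpr to 17628 genes and tested with the quasi-likelihood test, IVF against Natural, with Benjamini-Hochberg adjustment and a threshold of 0.05. CPM are counts scaled to the TMM library size, log2 CPM values for list levels and principal components use a prior count of 2, and log2 fold changes use edgeR's default prior. DESeq2 1.42.0, with 1725 adjusted p values given as missing, and the settings in the closing section were alternatives. The differences between ages were interaction terms fitted on the ovaries of both ages. Scripts were tested on simulated data, drawn with the spread that edgeR estimated and 200 genes changed. At a log2 fold change of 1 in the 12-week comparison, edgeR recovered 36% of these genes and DESeq2 60%. Of the calls, 4% with edgeR and 24.1% with DESeq2 were unchanged genes. At a log2 fold change of 2, edgeR recovered 82.5% and DESeq2 87.5%, with 5.17% and 23.9% of the calls unchanged. Depth ran from 2839022 to 43363799 counts, and 3 counts correspond to 1.06 CPM in the shallowest library. The floors cover counting error only, whereas the SEs and SDs include the spread between libraries.

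Replicates were separate females per the study's methods. The lowest chi-square between libraries of a group was 17.0 per degree of freedom, above sampling noise. It came from IVF replicates 3 and 4, the shallowest libraries, and this value rises with depth, so it does not rank pairs by likeness. The libraries compared and the gene lists were chosen with earlier results of these data known. Named were every gene past the threshold, the 12 genes per direction with the smallest p among those without overlap and with a mean of at least 5 CPM in the higher group, up to 5 members of each list with the smallest p and its first 2 members, Esr1, Star, Gdf9, Slc2a1 and Cdh13, and up to 6 genes whose effect differed between ages. Genes that only check the tissue (Zp3, Foxl2 and Amh) were added, and a few genes that the rule or the lists hold are not reported here. The covariate was the mean log2 CPM of the oviduct secretory and cilia genes. The 200 genes per cell type came from 36 summed oocytes and 2 cumulus libraries. Promoter windows and gene positions were RefSeq's for GRCm38.p6. Figures were drawn with matplotlib 3.10.9.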

Additional observations from a re-analysis of the deposited data

Results flagged for a closer look

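In 12 of 258 groups of 4 or 5 libraries examined, 1 library lay far from the others by Dixon's test, where chance gives about 1 in 20. In the Natural group these were Nlrp14 at 64.3 CPM (high) in replicate 2, and Ckmt1 at 25.3 CPM and Cyp17a1 at 469 CPM (both high) in replicate 4. In the IVF group, replicate 5 was high for Adipoq at 240.4 CPM and Dnajb9 at 101 CPM and low for Mvd at 15.4 CPM, and replicate 4 was high for Fshr at 46.7 CPM and low for Nr1d1 at 46.0 CPM. Among mean list levels in log2 CPM, IVF replicate 3 was low for cilia genes at -0.56 and for epithelial genes at 1.502, IVF replicate 5 stood apart for nutrient sensing at 6.08, and IVF replicate 2 for nuclear oxidative phosphorylation at 6.12.

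The IVF effect differed between ages, by an edgeR interaction test with Benjamini-Hochberg correction, for 4 genes. The difference on the log2 scale was 1.22 for Cd276 (12 weeks minus E18.5), and -1.28 for Optn, 0.91 for Ppp1r14b and 0.64 for Ybx3 (39 weeks minus 12 weeks).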

How the results depend on the processing

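No gene was higher at an edgeR adjusted p of 0.05 under any edgeR setting, and leaving out single libraries gave 0 to 0, while DESeq2 called 186 and, with a fold of at least 1.5, 93. For genes lower, against 1, DESeq2 called 474, or 376 with that fold, and edgeR called 9 with no filter, 0 with at least 10 counts in every library, which removes Tmem181c-ps, 2 with the oviduct and cilia covariate, 0 with 3 ages fitted together and 3 without IVF replicates 3 and 4, a setting chosen after seeing the data. Leaving out single libraries gave 1 to 5 lower, with 5 without IVF replicate 3 and 2 without Natural replicate 1 or 2. With DESeq2, also after seeing the data, leaving out single libraries gave 59 to 267 higher and 193 to 768 lower. Between 12 weeks and E18.5, against 1 gene, DESeq2 called 458, and leaving out single libraries gave 0 to 173. Between 39 and 12 weeks, against 3 genes, DESeq2 called 1137, the filter of 10 counts left 47, and leaving out single libraries gave 0 to 57. The cause of these shifts was not tested.

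The labels do not say whether replicate numbers pair the libraries. Deviations of same-numbered libraries from their group means correlated at 0.252, -0.222, -0.357 and 0.123. Replicate 1 was the only number whose libraries correlated best with each other. So few correlations cannot exclude a pairing by number. With the replicate block, in which IVF replicate 5 has no partner, 0 genes were lower, 1 differed between 12 weeks and E18.5 and 0 between 39 and 12 weeks. Among 96 named genes, 93 kept their direction under every setting. Many of these genes had been chosen for a small p or for groups without overlap in these same libraries. The count was therefore largely set by that choice. The genes that changed direction were Foxj1 at 0.40 and Adipoq at 0.12 with the covariate, and Star at -0.15 with the replicate block and -0.051 with the covariate. Foxj1 is itself 1 of the genes averaged into the covariate, so its value there is no separate check. Depth limits low genes most in IVF replicate 4.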
